A study of Mus musculus with 11 samples.

Results

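The 10 genes described here encode growth factors that act on blood vessels, their receptors, and surface proteins of endothelial cells: Vegfa, Vegfb, Angpt2, Kdr, Flt1, Tek, Tie1, Eng, Pecam1 and Cdh5. They were chosen by symbol, and all 10 were among the 12787 genes measured in the gonadal white adipose tissue (WAT) of 11 male C57Bl6/J mice. Every mouse was fed a 60% high fat diet (HFD) for 20 weeks. The 5 vehicle mice, called HFD control mice here, received the HFD alone. The 6 IMC-treated mice received the same diet with 0.06% w/w iodomethylcholine (IMC), an inhibitor of the gut bacterial enzyme that makes trimethylamine (TMA) from choline. No age was given for this experiment, 1 library was sequenced from each mouse, and the submitters left out a further control sample for its quality. The comparison asked how IMC altered gene expression in the fat depot.

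Vessels grow and persist in adipose tissue through a few signaling systems. Vascular endothelial growth factors are secreted by adipocytes and other cells and act on the receptors Kdr and Flt1 of endothelial cells, and Kdr carries most of the growth signal. The angiopoietins act on a second receptor, Tek, with Tie1 as its partner. Angpt1 activates Tek and keeps vessels stable, while Angpt2 is made by endothelial cells and often opposes Angpt1. Eng is a co-receptor for bone morphogenetic proteins in endothelium, Cdh5 is the cadherin of endothelial junctions, and Pecam1 is an adhesion molecule of those junctions.

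Expression is given as log2 CPM, the log2 of the reads of a gene as a share of the scaled library, in the usual CPM unit. A difference of 1 is a 2-fold difference in level. Depth ranged from 22320022 to 25155366 reads per library over the genes in the table, and the 10 genes had between 216 and 4685 reads in a mouse. Genes were compared by limma with Benjamini-Hochberg adjustment over all 12787 genes, and a gene was called at an adjusted p under 0.05. For single genes a two-sided exact permutation test was also run, over every way to divide the 11 mice into sets of 5 and 6. No batch is named in the labels, and the cage of each mouse was not given.

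The tissue labels were checked against marker genes. All 16 of the other endothelial genes looked up were listed, and so were all 8 adipocyte genes, the latter summing to between 13.23 and 13.74 log2 CPM in HFD control mice and between 14.21 and 14.49 in IMC-treated mice. Of the genes of other cell types, all 11 macrophage genes were listed, as were 12 of 13 genes of the mural cells that surround vessels. For lymphatic endothelium only 3 of 7 genes were listed, and the defining genes Prox1 and Ccl21a were not analysed here.

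Of the 10 genes, 4 rose and 1 fell in IMC-treated mice, and 5 did not pass the test. The share called, 50%, lay near the 40.9% of all genes that were called, made up of 20% higher and 21.0% lower. Both growth factors, Vegfa and Vegfb, were higher, as were the receptor Flt1 and the junction gene Cdh5. The angiopoietin Angpt2 was lower by about 1 log2 unit and was the gene of the 10 with the largest difference. The median log2 fold change of the 10 genes was 0.29, beside a median of -0.03 over all genes. The groups did not overlap for 2 of the 10 genes, Vegfa and Angpt2, where 23.1% of all genes had groups that did not overlap. The count of higher genes depended on HFD control mouse 2, and without that mouse 7 genes were called higher in place of 4. In whole tissue, a change in the number of cells of a type and a change in RNA per cell cannot be told apart.

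**Figure D1:**
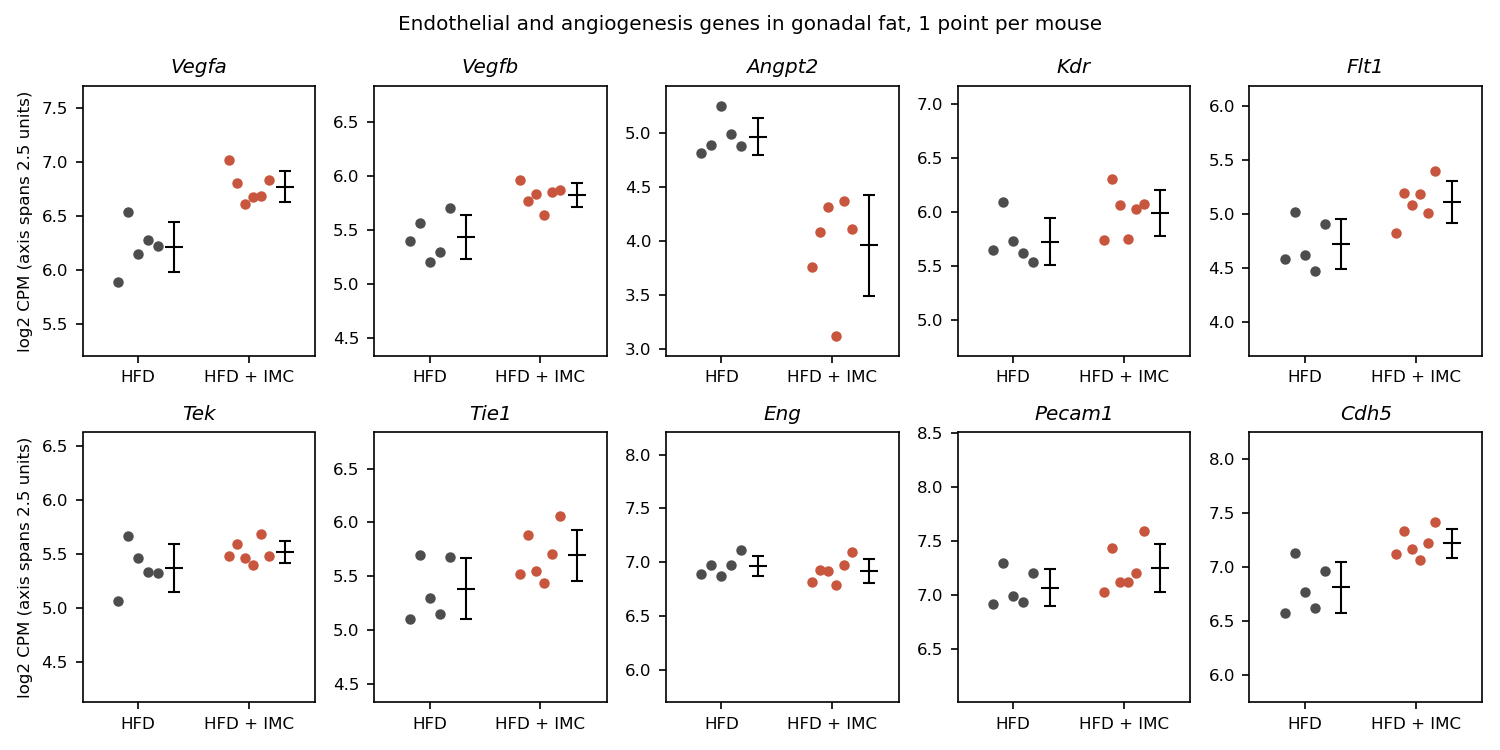
Log2 CPM of the 10 genes in each mouse, with HFD control mice in grey (n = 5) and IMC-treated mice in red (n = 6), where bars show the mean ± SD and each panel spans the same number of log2 units. All IMC-treated mice lie above all HFD control mice for Vegfa and below them for Angpt2, and the groups overlap for the other genes.

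The DNA upstream of 3 of the genes is shown because it belongs to both growth factor genes that rose and, for contrast, to the receptor gene with the smallest difference between groups, Eng. The RefSeq promoter table used, on GRCm38.p6, the build that is also called mm10, held 7 of the 10 genes. Each line has the 250 bases before the start site, 5′ to 3′ on the strand of the gene. Capitals mark GGAA, the core of binding sites for ETS factors, on either strand (TTCC on the other), and ACGTG, the core of sites for hypoxia-inducible factors (CACGT on the other). The Vegfa window is chr17:46032378-46032627, the Vegfb window is chr19:6987652-6987901, both on the minus strand, and the Eng window is chr2:32646345-32646594 on the plus strand.
Vegfa: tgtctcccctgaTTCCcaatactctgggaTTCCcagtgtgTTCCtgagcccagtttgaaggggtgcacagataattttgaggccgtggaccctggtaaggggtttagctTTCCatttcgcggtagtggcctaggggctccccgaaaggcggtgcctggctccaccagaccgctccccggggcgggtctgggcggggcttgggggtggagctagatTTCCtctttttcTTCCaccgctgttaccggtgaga
Vegfb: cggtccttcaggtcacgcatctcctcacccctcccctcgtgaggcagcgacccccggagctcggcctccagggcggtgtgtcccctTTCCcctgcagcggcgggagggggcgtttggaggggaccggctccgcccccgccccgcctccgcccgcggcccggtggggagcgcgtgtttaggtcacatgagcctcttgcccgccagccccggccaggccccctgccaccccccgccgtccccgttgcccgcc
Eng: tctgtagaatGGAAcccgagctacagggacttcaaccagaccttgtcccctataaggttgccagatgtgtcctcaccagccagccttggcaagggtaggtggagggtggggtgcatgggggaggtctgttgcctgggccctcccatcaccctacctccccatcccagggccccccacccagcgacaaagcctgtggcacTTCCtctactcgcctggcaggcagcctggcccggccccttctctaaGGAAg
The GGAA core was found 6 times in the Vegfa window, 1 time in the Vegfb window and 3 times in the Eng window, and no window of the 3 held ACGTG. Among all 32851 promoters of the table, 93.4% held GGAA at least once in a window of this length, with a median of 3 matches, and 16.6% held ACGTG. The main windows of Kdr and Flt1 held 4 GGAA cores each, that of Tek 2 and that of Tie1 7, and none of them held ACGTG. The windows of Kdr and Tie1 overlap annotated exons of their own gene. A second, internal start site of Vegfa had 1 ACGTG core in its window, which also overlaps an annotated exon of Vegfa. Such matches are letters in a window and say nothing of binding.

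Vegfa, the main growth factor for endothelial cells, lies on chromosome 17 from 46016993 to 46032369. Its log2 CPM was 5.89, 6.53, 6.15, 6.28 and 6.22 in HFD control mice 1 to 5. In IMC-treated mice 1 to 6 it was 7.02, 6.81, 6.62, 6.67, 6.69 and 6.84. Every IMC-treated mouse was above every HFD control mouse, and the highest control, mouse 2, stayed below the lowest treated mouse. The log2 fold change was 0.56 with an SE of 0.10 (limma, Benjamini-Hochberg adjusted p = 0.000847), a level 1.47-fold higher. The exact permutation test gave p = 0.00216, the smallest that this number of mice allows. Reads were counted per gene, so the splice forms of Vegfa, which differ in their binding to the matrix, were not separated.

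Vegfb, a relative of Vegfa that binds Flt1 and not Kdr, lies on chromosome 19 from 6982473 to 6987651. HFD control mice 1 to 5 had 5.39, 5.57, 5.20, 5.30 and 5.70 log2 CPM, and IMC-treated mice ranged from 5.64 to 5.97 with a median of 5.84. Of the 6 treated mice, 5 were above the highest control, so the groups overlapped in a narrow band. The log2 fold change was 0.39 with an SE of 0.09 (limma, Benjamini-Hochberg adjusted p = 0.00316, exact permutation p = 0.00649).

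Angpt2 lies on chromosome 8 from 18690263 to 18741562, within the interval of another gene, Mcph1, with which it shares no exon. HFD control mice 1 to 5 had 4.82, 4.89, 5.25, 5.00 and 4.88 log2 CPM, a narrow range. IMC-treated mice 1 to 6 had 3.76, 4.08, 4.32, 3.12, 4.38 and 4.12 log2 CPM. All treated mice were below all controls, and they were also more spread, with an SD of 0.47 against 0.17. The log2 fold change was -1.01 with an SE of 0.19 (limma, Benjamini-Hochberg adjusted p = 0.00111), a level of 0.498 times that of HFD control mice. IMC-treated mouse 4 was lowest, and without it the log2 fold change was -0.84 and still called. The exact permutation test gave p = 0.00216.

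Kdr, the main signaling receptor for Vegfa, lies on chromosome 5 from 75932827 to 75978458. HFD control mice 1 to 5 had 5.65, 6.09, 5.73, 5.62 and 5.53 log2 CPM, and IMC-treated mice ranged from 5.74 to 6.30 with a median of 6.04. The groups overlapped, since control mouse 2 was above 5 of the 6 treated mice. The difference of 0.27 had a 95% confidence interval from 0.02 to 0.51 and did not pass after adjustment (limma, Benjamini-Hochberg adjusted p = 0.0742, exact permutation p = 0.0758). It was called without control mouse 2, where it was 0.36 (limma, Benjamini-Hochberg adjusted p = 0.0135), without IMC-treated mouse 1, where it was 0.32, and without IMC-treated mouse 4, where it was 0.31.

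Flt1 binds Vegfa tightly but signals weakly, and its soluble form traps the ligand; the counts per gene do not separate the forms. It lies on chromosome 5 from 147561604 to 147726011. HFD control mice 1 to 5 had 4.58, 5.02, 4.62, 4.48 and 4.91 log2 CPM, and IMC-treated mice ranged from 4.83 to 5.40 with a median of 5.14. Of the 6 treated mice, 4 were above the highest control. The log2 fold change was 0.40 with an SE of 0.11 (limma, Benjamini-Hochberg adjusted p = 0.0134, exact permutation p = 0.0216).

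Tek, the receptor for the angiopoietins, lies on chromosome 4 from 94739289 to 94874976. HFD control mice 1 to 5 had 5.07, 5.67, 5.47, 5.33 and 5.32 log2 CPM, and treated mice ranged from 5.40 to 5.68. The groups overlapped widely, and the difference was 0.15 with a 95% confidence interval from -0.05 to 0.34 (limma, Benjamini-Hochberg adjusted p = 0.213, exact permutation p = 0.173). Without HFD control mouse 2 the difference was 0.22 and was called (limma, Benjamini-Hochberg adjusted p = 0.0416).

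Tie1, the partner of Tek, lies on chromosome 4 from 118471191 to 118490061. It had 5.11, 5.69, 5.30, 5.15 and 5.68 log2 CPM in HFD control mice 1 to 5 and from 5.44 to 6.06 in treated mice, with a median of 5.63. The controls fell into low and high values, and mice 2 and 5 were each above 3 of the 6 treated mice. The difference was 0.31 with a 95% confidence interval from 0.02 to 0.60 (limma, Benjamini-Hochberg adjusted p = 0.0843, exact permutation p = 0.0887). It was called at 0.38 without control mouse 2 and at 0.38 without control mouse 5.

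Eng lies on chromosome 2 from 32646595 to 32682669, and its exons overlap those of Fpgs on the other strand. The library kit kept the strand of each read, but the strand setting of the counting was not given in the sources used here. HFD control mice 1 to 5 had 6.89, 6.97, 6.88, 6.98 and 7.11 log2 CPM, and IMC-treated mice ranged from 6.79 to 7.10 with a median of 6.92. The groups covered almost the same range. The difference was -0.05 with a 95% confidence interval from -0.18 to 0.09 (limma, Benjamini-Hochberg adjusted p = 0.578, exact permutation p = 0.485). Eng is also made by macrophages and stromal cells, and 9 of 11 macrophage genes were lower in IMC-treated mice, where 21.0% of all genes were. The part of those cells in the value of Eng was not tested.

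Pecam1, on chromosome 11 from 106654217 to 106750628, had 6.91, 7.29, 6.98, 6.93 and 7.20 log2 CPM in HFD control mice 1 to 5. IMC-treated mice ranged from 7.02 to 7.59 with a median of 7.16, and only 2 of them were above the highest control. The difference was 0.18 with a 95% confidence interval from -0.04 to 0.41 (limma, Benjamini-Hochberg adjusted p = 0.182, exact permutation p = 0.169). Platelets and leukocytes also carry Pecam1. Only 2 of the 5 platelet genes looked up were listed, Pf4 and Itga2b, and both were lower in IMC-treated mice. The part of platelets in the value of Pecam1 was not tested. Cdh5, on chromosome 8 from 104101625 to 104144511, is more restricted to endothelium. It had 6.57, 7.13, 6.77, 6.62 and 6.96 log2 CPM in controls and from 7.07 to 7.42 in treated mice, 4 of which were above the highest control. The log2 fold change of Cdh5 was 0.41 with an SE of 0.10 (limma, Benjamini-Hochberg adjusted p = 0.00510, exact permutation p = 0.00649).

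The same mice were high or low for most of the 7 genes of the endothelial cell itself, Kdr, Flt1, Tek, Tie1, Eng, Pecam1 and Cdh5. Among HFD control mice, mouse 2 had the highest value for 6 of the 7 genes and mouse 1 the lowest for 4. Among IMC-treated mice, mouse 6 was highest for 5 of the 7 genes, and mouse 4 was lowest for 4 and mouse 1 for 3. The mean of the 7 genes ranged from 5.83 to 6.27 log2 CPM in HFD control mice and from 6.08 to 6.45 in IMC-treated mice. The groups overlapped through control mice 2 and 5. Control mouse 2, with the highest control value, was above 4 of the 6 treated mice. Control mouse 5, at 6.10, was above only IMC-treated mouse 1, at 6.08. Control mice 1, 3 and 4, at 5.83, 5.96 and 5.87, were below every treated mouse.

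Genes with the most similar pattern were found by centering log2 CPM within each group, so that the difference between groups did not enter. The Pearson r over the 11 mice was taken with the mean of the 7 endothelial genes, and it is given as a description, since all genes of a mouse share a library and its scaling. The 5 genes with the highest r among the 12777 others were Mmrn2 (r = 0.980), which encodes an endothelial matrix protein, Ushbp1 (r = 0.961), Ncan (r = 0.957), which encodes a proteoglycan best known from brain, She (r = 0.955) and Ptprb (r = 0.951), the phosphatase that dephosphorylates Tek. Mmrn2, She and Ptprb are among the 16 other endothelial genes looked up, of which 7 ranked in the top 100. Each of the 5 genes was called higher in IMC-treated mice, with log2 fold changes of 0.40 for Mmrn2, 0.30 for Ushbp1, 0.73 for Ncan, 0.43 for She and 0.52 for Ptprb. Of the 10 genes themselves, Cdh5 (r = 0.973), Tie1 (r = 0.959) and Pecam1 (r = 0.95) were closest to the mean that they are part of, while Vegfa (r = 0.480), Vegfb (r = 0.423) and Angpt2 (r = 0.311), which are not part of it, had lower values.

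Levels of different genes were compared per kilobase of exon, using the exons of all GENCODE M21 transcripts of a gene. In HFD control mice the mean level per length was highest for Eng, with 31.0 CPM per kilobase, followed by Vegfb with 27.1, Cdh5 with 27.0, Pecam1 with 21.6 and Vegfa with 17.5. The ranges of neighbours in this order overlapped from Eng to Vegfa. A gap followed, and Tek, Tie1 and Angpt2 had 8.86, 8.65 and 8.53 CPM per kilobase, with overlapping ranges. Kdr had 5.92 and Flt1, with 1.98, was lowest, and the ranges of Angpt2 and Kdr, and of Kdr and Flt1, did not overlap. In IMC-treated mice Cdh5 was highest at 35.6 CPM per kilobase, Vegfb had 35.3, Eng had 30.05 and Vegfa had 25.6. Angpt2 had 4.39 CPM per kilobase and now stood below Kdr, with 7.12, with which it did not overlap. The length of Flt1 transcripts in this tissue was not measured, and a shorter transcript would raise its level per length.

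Ratios of genes within a mouse do not depend on the scaling of the libraries, and 4 were compared. The log2 ratio of Angpt2 to its counterpart Angpt1 was 1.71, 1.72, 2.10, 1.67 and 1.54 in HFD control mice 1 to 5. In IMC-treated mice 1 to 6 it was 0.18, 0.37, 0.80, -0.26, 1.10 and 0.08. All treated mice were below all controls, and the mean log2 ratio fell by 1.37 (exact permutation p = 0.00433, Benjamini-Hochberg adjusted p = 0.0173 over the 4 ratios). Angpt1 itself was called higher, with a mean log2 CPM of 3.22 ± 0.10 (SD, n = 5) in controls and of 3.58 ± 0.27 (SD, n = 6) in treated mice, and 1 other gene overlaps its exons. The other ratios overlapped between the groups. Vegfa to Vegfb differed by 0.17, Flt1 to Kdr by 0.13 and Tie1 to Tek by 0.16 on the log2 scale, within the spread between mice (exact permutation p = 0.199, 0.292 and 0.294, each with a Benjamini-Hochberg adjusted p = 0.294 over the 4 ratios). Flt1 was called and Kdr was not, but their ratio was thus not shown to differ between the groups.

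**Figure D2:**
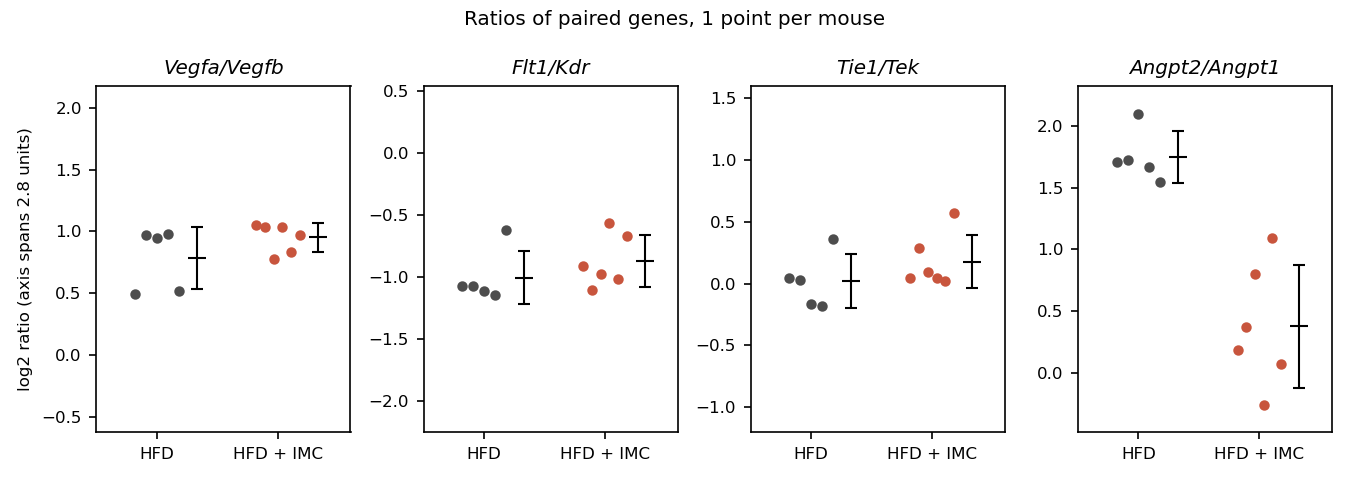
Log2 ratios of paired genes in each mouse, with HFD control mice in grey (n = 5), IMC-treated mice in red (n = 6), and the mean ± SD as bars. The ratio of Angpt2 to Angpt1 lies between 1.54 and 2.10 in controls and between -0.26 and 1.10 in treated mice, while the other 3 ratios overlap.

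Other genes of the endothelial cell were higher in part. Of the 16 other endothelial genes, 6 were called higher and the other 10 did not pass. This count lay near the 40.9% of all genes that were called in either direction. The median log2 fold change of the 16 genes was 0.25, with a positive value for all 16. The 3 with the smallest p were Nos3, the endothelial nitric oxide synthase, with a log2 fold change of 0.83 (SE 0.17), Ptprb with 0.52 (SE 0.11) and Mmrn2 with 0.40 (SE 0.11). The exons of Nos3 overlap those of 2 other genes. Without HFD control mouse 1, 3 of the 16 were called. The mean of the 16 genes was between 4.64 and 5.09 log2 CPM in HFD control mice and between 4.84 and 5.47 in IMC-treated mice, and 2 of the 6 treated mice were above the highest control.

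**Figure D3:**
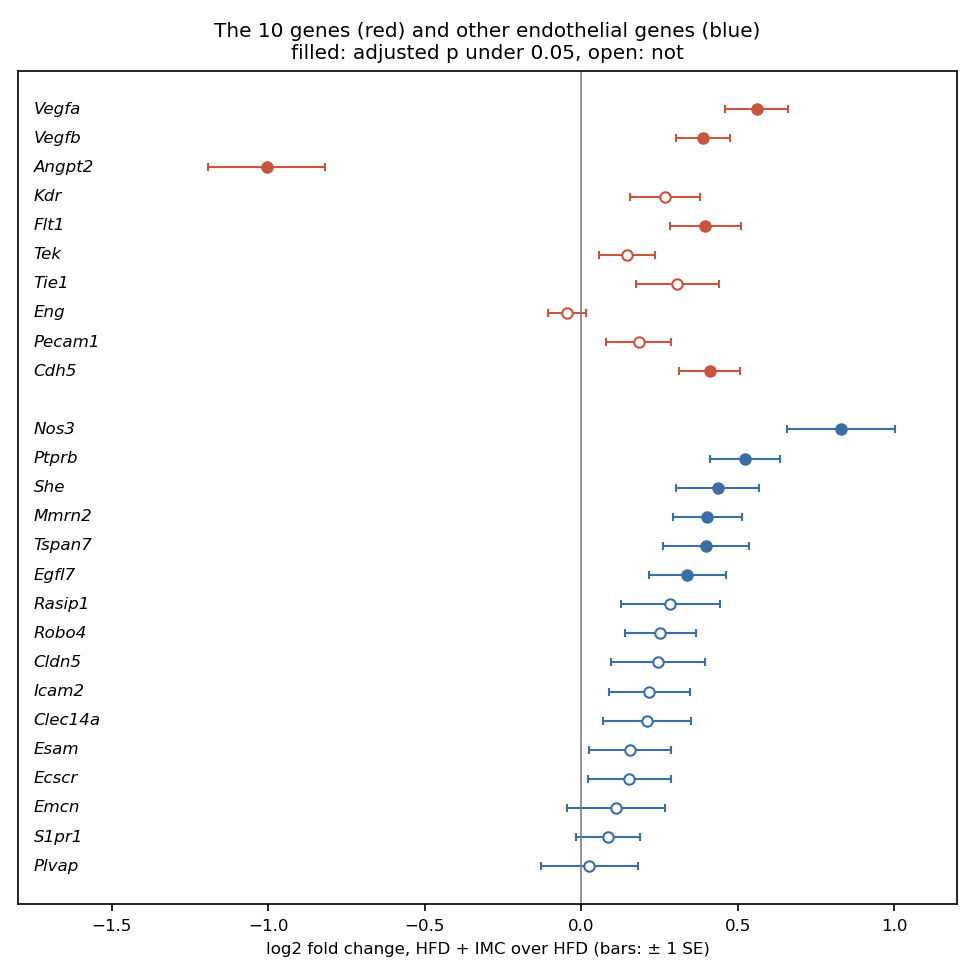
Log2 fold change of IMC-treated over HFD control mice with ± 1 SE, for the 10 genes (red) and 16 other endothelial genes (blue, in order of size), filled where the adjusted p was under 0.05. Angpt2 is the gene farthest from 0 at -1.01, and the 16 blue genes all lie above 0, up to 0.83 for Nos3.

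Each of the 10 genes was then set against the mean of the 16 other endothelial genes in the same mouse. Relative to that mean, Angpt2 ranged from -0.20 to 0.56 in HFD control mice and from -1.72 to -0.67 in IMC-treated mice, with no overlap. Its relative level fell by 1.30 on the log2 scale (SE 0.17), and it was the only gene of the 10 that limma called on this scale, where 41.1% of all genes were called. The relative difference of Vegfa was 0.27 (limma, Benjamini-Hochberg adjusted p = 0.133, exact permutation p = 0.0671), and those of Kdr and Tie1 were -0.02 and 0.02. Subtracting the same mean from all genes of a mouse adds spread to some genes and removes it from genes that vary with the mean. Among HFD control mice the SD of Cdh5 was 0.23 in log2 CPM and 0.07 on this scale. That of Pecam1 was 0.17 and 0.05, while that of Eng was 0.09 and 0.16. Limma draws the variance of each gene toward that of all genes, and its SE was between 0.137 and 0.170 for the 10 genes. Genes that vary with the mean can therefore fail to pass by limma here. The exact permutation test does not share that estimate. It gave an exact p = 0.00866 for Eng, whose relative difference was -0.34, p = 0.0411 for Pecam1 at -0.11 and p = 0.0519 for Cdh5 at 0.12, none adjusted for the 10 genes compared. The limma adjusted p with Benjamini-Hochberg adjustment was 0.0576 for Eng, and it was 0.0286 with the median of the 16 genes in place of the mean, where the difference was -0.41. Without HFD control mouse 2 (-0.40) or without IMC-treated mouse 4 (-0.37), Eng was also called.

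Set against the mean of 8 adipocyte genes, all 10 genes had lower relative levels in IMC-treated mice and were called, where 94.0% of all genes were called on this scale. HFD control mice averaged 9.76 ± 0.24 (SD, n = 5) and IMC-treated mice 10.62 ± 0.09 (SD, n = 6) in the mean log2 CPM of these 8 genes, with no overlap. The relative differences were smallest for Vegfa, -0.30 (SE 0.11), and largest for Angpt2, -1.87 (SE 0.18). Eng had -0.90, Tek -0.71, Pecam1 -0.68, Kdr -0.59, Tie1 -0.55, Vegfb -0.47, Flt1 -0.46 and Cdh5 -0.45. The groups overlapped for Vegfa and Kdr on this scale. Vegfa rose in log2 CPM by less than the mean of the adipocyte genes did. Without HFD control mouse 4 the relative difference of Vegfa was -0.27 and no longer called (limma, Benjamini-Hochberg adjusted p = 0.0521).

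**Figure D4:**
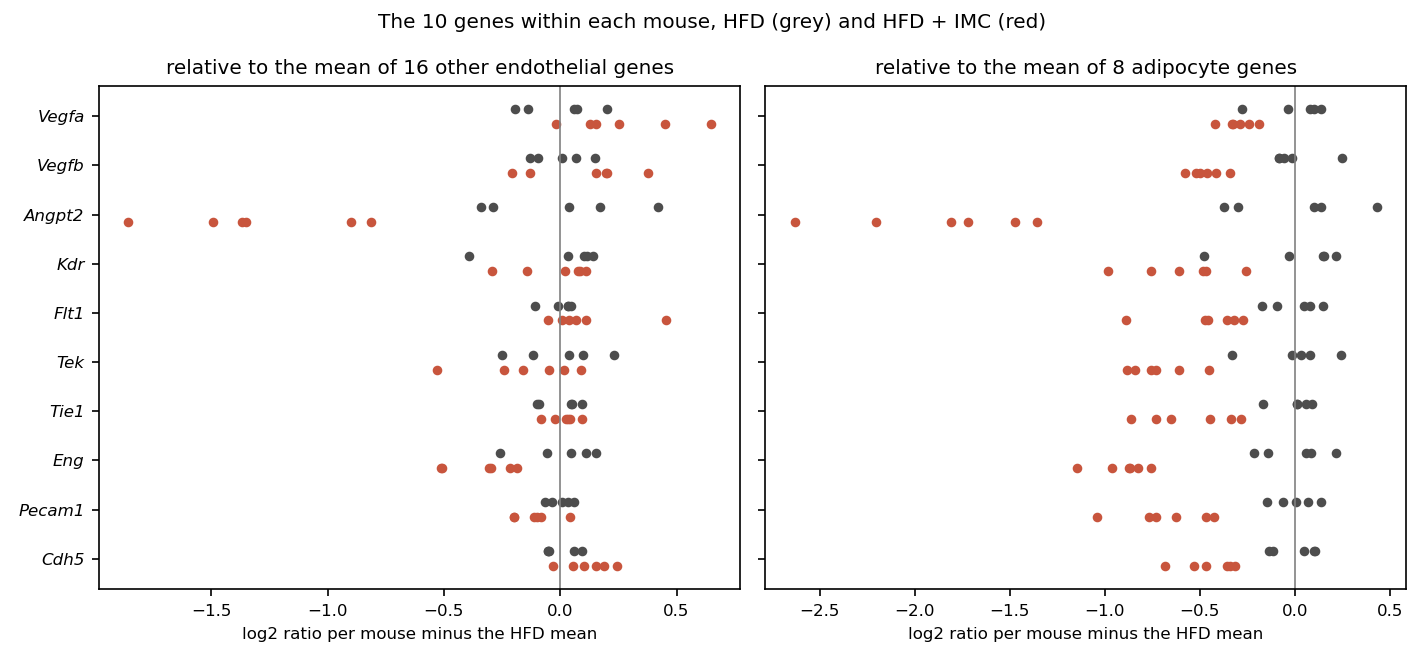
Levels of the 10 genes in each mouse relative to the mean of 16 other endothelial genes (left) and of 8 adipocyte genes (right), as log2 ratios with the HFD mean set to 0, in HFD control mice (grey, n = 5) and IMC-treated mice (red, n = 6). On the left the groups are apart for Angpt2 and overlap for the other genes, and on the right the treated mean is lower for all 10 genes, with overlap for Vegfa and Kdr.

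The other members of the vascular endothelial growth factor family did not move together. Of 5 genes listed, 1 was higher and 2 were lower, where 40.9% of all genes were called. Figf, the older name of the gene for VEGF-D, rose by 0.56 (SE 0.11), while the co-receptors Nrp1 and Nrp2 fell by 0.18 (SE 0.05) and by 0.40 (SE 0.09) on the log2 scale. Vegfb binds Nrp1 as well as Flt1. The log2 CPM of Nrp1 averaged 8.77 ± 0.05 (SD, n = 5) in controls against 8.59 ± 0.06 (SD, n = 6) in treated mice, a small difference with no overlap, and 1 gene overlaps its exons. In the angiopoietin and Tie system, all 4 other genes listed were called higher, and 3 of the 4 without HFD control mouse 1, 2 or 3 or without IMC-treated mouse 2. Svep1, which encodes a matrix protein, rose by 0.60 (SE 0.08), Ptprb by the value above, Foxo1, the transcription factor that Tek signaling keeps inactive, by 0.42 (SE 0.11), and Angpt1 by 0.36 (SE 0.12). Exons of Svep1 and Foxo1 each overlap those of 1 other gene.

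Genes of the pathway of Eng were divided. Of 11 listed, 3 were higher and 4 were lower, with a median log2 fold change of 0.01. Tgfb1, a ligand, fell by 0.47 (SE 0.07) and its receptor Tgfbr2 by 0.40 (SE 0.09), while Smad6, an inhibitor within the pathway, rose by 0.66 (SE 0.14). Acvrl1, the signaling receptor that Eng assists in endothelium, had a log2 fold change of -0.24 and was called lower. It was named after its value was seen, as a partner of Eng, and 1 other gene overlaps its exons. The Notch and tip cell list, which covers the choice between sprouting and resting endothelial cells, had 3 of 13 genes higher and 2 lower. The ligand Jag2 rose by 0.71 (SE 0.14), and Rbpj, the DNA-binding factor of the pathway, fell by 0.37 (SE 0.08). Cxcr4, which is also abundant on leukocytes, fell by 0.42 (SE 0.11). Esm1, a tip cell marker, was not analysed here.

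Among 16 transcription factors known from endothelium, 1 was higher and 7 were lower, with a median log2 fold change of -0.19. Epas1, the hypoxia-inducible factor that is abundant in endothelium, rose by 0.49 (SE 0.07). Lmo2 fell by 0.38 (SE 0.09) and Hhex by 0.38 (SE 0.08), and both are also made by blood cells. Without HFD control mouse 1, 5 of the 16 were called in place of 8. Genes of the hypoxia response, of which Vegfa is a known target, had 6 of 17 higher and 3 lower, with a median log2 fold change of 0.14. Pfkfb3, a regulator of glycolysis, rose by 1.11 (SE 0.12), Bnip3, a mitochondrial protein of the hypoxia response, by 0.62 (SE 0.11) and Hif1a, the oxygen-regulated factor itself, by 0.31 (SE 0.06). The 3 lower genes, Slc2a1, Car9 and P4ha1, had log2 fold changes of -0.50, -0.41 and -0.41, and they were named after their values were seen. The other 8 genes did not pass, so the list did not move in 1 direction. Exons of Bnip3 and Hif1a overlap those of 1 and 2 other genes.

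The list of angiogenesis inhibitors and related genes had 8 genes, of which 2 were higher and 1, Vash2, was lower. This count lay near the 40.9% of all genes called. Col18a1, the collagen from which endostatin is cut, rose by 0.25 (SE 0.05), and the protease gene Adamts1 by 0.32 (SE 0.11). Vash2 is a relative of the inhibitor gene Vash1 but is known to favor vessel growth, so the gene that fell is not itself an inhibitor. It fell by 0.75 (SE 0.20), and among the controls mouse 5 stood apart at 2.82 log2 CPM of Vash2. Vash1, named after its value was seen, had a log2 fold change of -0.14 and did not pass.

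Markers of the vessel segments were counted in short lists of 3 to 7 genes, where 40.9% of all genes were called. Whether the share called differed between the segments was not tested. Of 6 capillary genes, 5 were higher and 1 did not pass, with a median log2 fold change of 0.42. Rgcc rose by 0.72 (SE 0.12), the water channel gene Aqp1 by 0.68 (SE 0.17) and Cd300lg by 0.41 (SE 0.07). The summed level of the capillary genes was between 8.59 and 9.18 log2 CPM in HFD control mice and between 9.27 and 9.90 in IMC-treated mice, with no overlap. Of 5 arterial genes, 2 were higher, Gja5 by 0.49 (SE 0.14) and Sema3g by 0.47 (SE 0.09), while Efnb2 had a log2 fold change of 0.16 and did not pass. Of 7 venous genes, 2 were higher, Ephb4 by 0.39 (SE 0.10) and Lrg1 by 0.88 (SE 0.18), and Vcam1 had -0.23 without passing. Of the 3 lymphatic genes listed, Pdpn fell by 0.42 (SE 0.12), and Lyve1 and Flt4 had 0.53 and 0.33 without passing. Without HFD control mouse 2, 2 of these 3 lymphatic genes were called. Whether lymphatic endothelium was their source in this tissue was not tested. Lrg1 and Aqp1 are also made by other cells of the tissue, and 1 gene overlaps exons of Gja5, of Ephb4 and of Vcam1.

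Of 12 mural cell genes, 6 were higher and the other 6 did not pass, with a median log2 fold change of 0.36. Mcam rose by 0.97 (SE 0.10), Cspg4 by 0.96 (SE 0.16) and the smooth muscle actin Acta2 by 0.71 (SE 0.13), and 9 of the 12 genes had a positive value. The 3 genes with a negative value, Pdgfrb, a receptor of pericytes, Des, which encodes desmin, and Higd1b, had log2 fold changes of -0.12, -0.20 and -0.11 and did not pass, and they were named after their values were seen. Exons of Mcam overlap those of 1 other gene. The summed level of the mural genes was between 9.38 and 9.83 log2 CPM in HFD control mice and between 10.08 and 10.38 in IMC-treated mice. The sum is weighted to its most abundant gene, Mcam, with a mean log2 CPM of 7.93 in controls and 8.90 in treated mice. Whether the number of mural cells differed was not tested, and neither was the part of other cells in Mcam and Cspg4.

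Genes of other cell types moved with the group as well. All 8 adipocyte genes were higher, among them Lep, the leptin gene, by 1.04 (SE 0.11), Cidec by 0.87 (SE 0.11) and Plin1 by 0.84 (SE 0.11). Of 11 macrophage genes, 9 were lower and the other 2 did not pass, with falls of 0.79 for Trem2, 0.61 for Cd68 and 0.56 for Cd14 on the log2 scale, and their summed level was between 13.48 and 13.93 log2 CPM in HFD control mice and between 12.57 and 13.27 in IMC-treated mice. Of 8 progenitor and fibroblast genes, 6 were lower, among them Pi16 by 0.69, Ly6a by 0.48 and Col1a1 by 0.37, and their summed level went from between 12.58 and 12.84 to between 12.25 and 12.49. All 5 mast cell genes were lower, Cma1 by 1.56, Tpsb2 by 1.44 and Cpa3 by 1.42, with a summed level between 8.61 and 9.79 in controls and between 6.89 and 7.97 in treated mice. Of 4 mesothelial genes listed, Wt1 was lower by 0.57, and Upk3b and Lrrn4 had -0.42 and -0.45 without passing. Only 2 of 5 platelet genes were listed, and both were lower, Itga2b by 0.72 and Pf4 by 0.38. In 5 of the 11 comparisons that each left out a mouse only 1 of them was called. The only lymphocyte gene listed of 7, Nkg7, had -0.55 and did not pass. Only 3 of 8 skeletal muscle genes were listed. Myh2 rose by 3.02, from a low mean of -1.10 log2 CPM in HFD control mice, and Acta1 by 1.23. Myh2 ranged from -1.36 to -0.64 in controls and from 1.38 to 2.69 in treated mice. The authors removed transcripts under 1 CPM in all samples, and on the deposited scale Myh2 passed 1 CPM only in treated mice. Actn3 had -0.12 without passing. The part of these cell types in the differences of Vegfa, Angpt2, Eng, Pecam1 and the other genes was not tested.

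**Figure D5:**
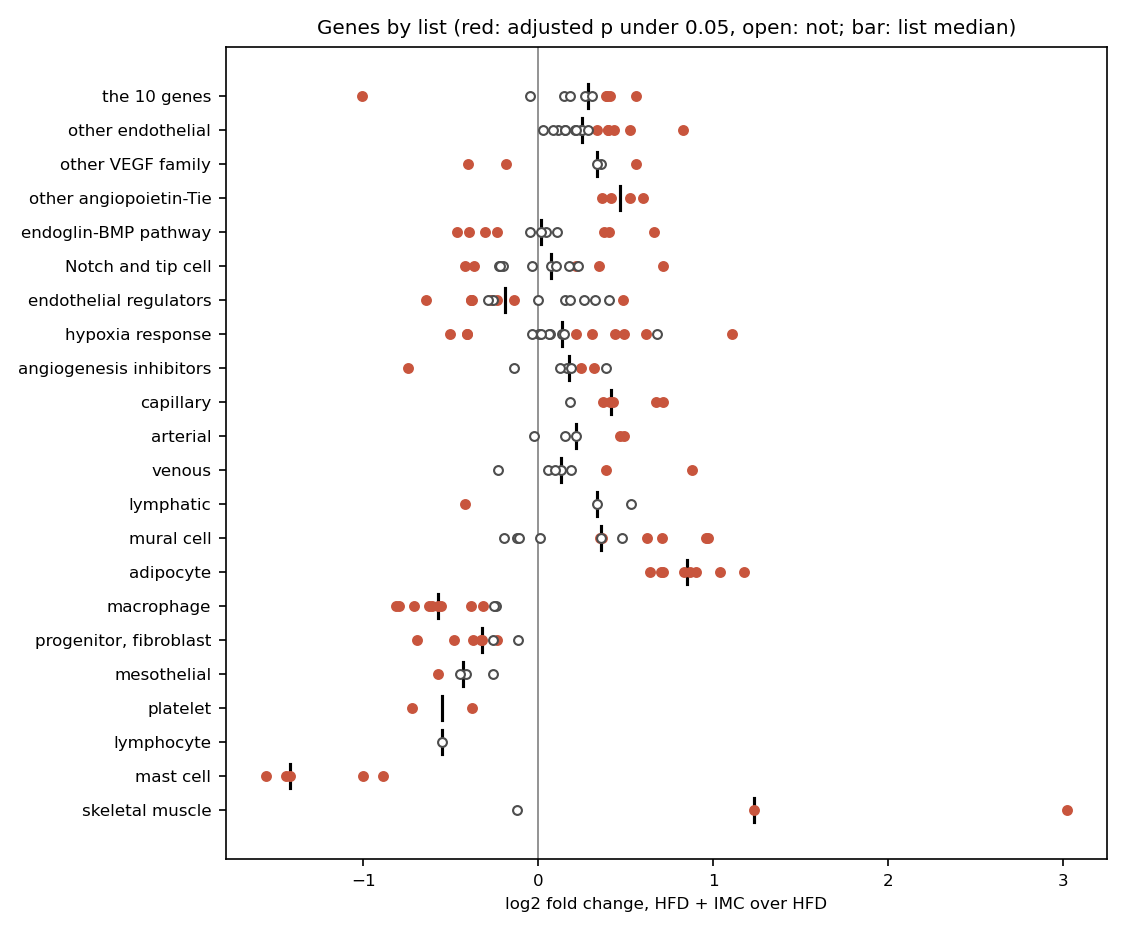
Log2 fold change of IMC-treated over HFD control mice for the 10 genes and for each gene of the 21 other lists, in red where the adjusted p was under 0.05 and open where it was not, with a bar at the median of each list. The list medians run from -1.42 for mast cell genes to 1.23 for skeletal muscle genes, of which only 3 were listed, and that of the 10 genes is 0.29.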

How the data were processed

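RNA was isolated from the gonadal WAT of 11 mice and sequenced from directional mRNA libraries. Reads were trimmed (Trim Galore) and aligned and counted per gene (STAR, build mm10) by the authors, who removed transcripts under 1 CPM in all samples and applied upper-quartile scaling in edgeR. The authors deposited log2 CPM values for 12787 genes in each mouse. The same deposited table holds the authors' own comparison, with a log2 fold change, a likelihood-ratio score, a p-value and an FDR, none of which was used.

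The deposited log2 CPM were compared by limma 3.58.1 in R 4.3.3 with a trend and 1 factor, the group, and p-values were adjusted over all genes (Benjamini-Hochberg). Whole reads were recovered from the equal steps of the CPM values in each mouse, with 100% of the values whole within 0.01 reads, and gave the depth and the alternative scalings. Intervals and tests cover the spread between mice, since reads are not independent molecules. In simulated data for this comparison with 12787 genes, 94% of genes changed by 1 log2 unit and 75% of those changed by 0.5 were called. Far fewer genes were changed in the simulation than the 40.9% called in the data. The adjusted p depends on that share, so the simulated rates are not the detection rates of the real comparison. The genes, the lists and the tests were chosen with earlier results of these data known. The text names the 10 genes, the 3 of each list with the smallest p and the 5 genes most alike. Positions came from GENCODE M21 and promoters from RefSeq, both on GRCm38. No library pair agreed within counting error. Alternatives were no trend, other scalings, other filters, a constant of 2 reads, limma voom and each mouse left out.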

Additional observations from a re-analysis of the deposited data

Results flagged for a closer look

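A value was singled out where the highest or lowest mouse of a group stood far from the others, by Dixon's test at the 95% level. Of 194 groups of values tested, 11 (5.67%) were singled out, where chance gives about 5%. The log2 ratio of Flt1 to Kdr was -0.62 in HFD control mouse 5, with the next control at -1.07. The level of Kdr relative to the other endothelial genes was 0.50 in the same mouse, with the next control at 0.93. Relative to the same genes, Flt1 was highest in IMC-treated mouse 4, at 0.35 against 0.01. Relative to the adipocyte genes, Vegfb was highest in HFD control mouse 1, at -4.08, and Flt1 was lowest in IMC-treated mouse 1, at -5.93. Among genes of the other lists, HFD control mouse 1 was high for the mast cell genes Cma1 (7.81 log2 CPM) and Cpa3 (7.82 log2 CPM). HFD control mouse 3 was high for Upk3b (7.11 log2 CPM) and HFD control mouse 5 for Vash2 (2.82 log2 CPM). IMC-treated mouse 2 was high for Actn3 (2.14 log2 CPM), and IMC-treated mouse 6 was low for Rbpj (5.63 log2 CPM).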

How the results depend on the processing

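The calls of Vegfa, Vegfb, Angpt2, Flt1 and Cdh5 were kept in all 7 alternatives of trend, scaling, filter, added constant and voom, and with each mouse left out. With each mouse left out, the log2 fold change of Kdr was between 0.21 and 0.36, of Tek between 0.0707 and 0.22 and of Tie1 between 0.23 and 0.38, each past the threshold in part of these fits. Between 4 and 7 of the 10 genes were called higher with a mouse left out. Calls in either direction numbered between 3 and 7 for the other endothelial genes and between 5 and 9 for the transcription factors. They numbered between 3 and 4 for the angiopoietin and Tie genes, and between 1 and 2 for the lymphatic and for the platelet genes. Relative to the other endothelial genes, between 1 and 2 of the 10 genes were called with a mouse left out, and 2 with the median of the list. On that scale Kdr was between -0.123 and 0.0297 and Tie1 between -0.00914 and 0.0394 with a mouse left out, and Tie1 was -0.0602 with the median of the list, so neither has a stable sign. The cause of these changes was not tested. The libraries were deep enough for each of the 10 genes, the lowest value being 216 reads of Angpt2, and the number of mice limits the precision. No paired analysis was possible because the mouse numbers only name the mice in order, and nothing in the labels ties equal numbers to a cage, litter or batch.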
